A study of Mus musculus with 9 samples.

Results

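The genes described here are 10 genes that ERK signaling is known to induce and whose products mostly act back on that pathway. They are the MAP kinase phosphatases Dusp4, Dusp5 and Dusp6, the inhibitors Spry1, Spry2, Spred1 and Spred2, and the transcription factors Etv4, Etv5 and Egr1. They were chosen by name, and their values were examined in wt, Stat5a-/- and Stat5b-/- leukemic cell lines. All 10 were found among the 50686 genes counted in each library, and all 10 were among the 13852 genes that passed a filter on low counts and were tested.

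ERK is the last kinase of the RAS, RAF and MEK cascade, through which growth factor receptors and the BCR/ABL oncoprotein drive proliferation. Active ERK switches on immediate-early transcription factors such as Egr1, and then genes that limit its own activity. Dual-specificity phosphatases remove the phosphates that activate ERK, whereas Sprouty and Spred proteins act further up, on RAS and RAF. The mRNA of these genes is therefore often read as a record of ERK output, although mRNA was the only quantity measured here and ERK phosphorylation was not analysed.

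The libraries were made from polyadenylated RNA of mouse bone marrow cell lines on the C57BL/6N background, transformed by the p185 form of BCR/ABL, a fusion kinase of acute lymphoblastic leukemia. The wt line carries intact Stat5a and Stat5b, the Stat5a-/- line comes from mice without STAT5A and the Stat5b-/- line from mice without STAT5B. STAT5A and STAT5B are closely related transcription factors that BCR/ABL keeps active, and all 3 lines carry the oncogene. The paper reports higher BCR/ABL levels in cells without Stat5a or Stat5b, and the part of this in the values below was not tested. There was 1 line per genotype with 3 technical replicates, so the p-values measure the spread between replicate libraries of a line, and genotype and individual line cannot be told apart.

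The 9 libraries held between 11948136 and 19016396 counted reads, and the spread among replicate libraries exceeded sampling noise. In the Stat5a-/- line, Stat5a mRNA was 3.47-fold lower than in wt (adjusted p = 4.69e-07 in edgeR's test) and still at 12.4 normalized CPM (CPM are reads relative to a fixed library total, here after scaling between libraries), and in the Stat5b-/- line Stat5b was 1.66-fold lower (adjusted p = 0.000169), at 63.4 normalized CPM. The other paralog was higher in each knockout line, Stat5b 1.34-fold in Stat5a-/- (adjusted p = 0.00942) and Stat5a 1.94-fold in Stat5b-/- (adjusted p = 5.95e-05). Each of 10 B-lineage markers had reads in every library, with sums of 4722 to 5026 normalized CPM in wt, 6558 to 7278 in Stat5a-/- and 5789 to 6635 in Stat5b-/-. Rag1 of this list ran against its sum, with 63.4 to 67.1 normalized CPM in wt, 0.0902 to 0.244 in Stat5a-/- and 0.480 to 0.838 in Stat5b-/-, as did Pax5 in Stat5b-/- (700.2 to 1056, against 1146 to 1258 in wt). All 16 T-cell markers also had reads in every library, Cd3d, Cd3e and Cd3g included, and their sum was 849 to 1154 normalized CPM in wt, 1482 to 1712 in Stat5a-/- and 1792 to 2615 in Stat5b-/-, without overlap between the lines. Single markers did not all follow the sum, and Cd3d and Cd28 overlapped between wt and Stat5a-/-. Cd2 had 54.2 to 56.0 normalized CPM in wt, 257 to 289 in Stat5a-/- and 88.6 to 102 in Stat5b-/-. Sums of 10 myeloid markers were 4.74 to 7.58, 7.57 to 9.72 and 12.6 to 15.8 normalized CPM in the same order, and those of 8 erythroid and stromal markers, nearly all from Pecam1, were 122 to 128, 106 to 116 and 202 to 217, with Col3a1 at 0. In the description field, the knockout samples are named as wt, in conflict with their titles and genotype labels, which were used.

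Compared to wt, the 10 genes did not move in a single direction in either knockout line. In Stat5a-/- cells, 2 of them were higher (Dusp4 and Spry1) and 4 were lower (Dusp6, Spred1, Etv5 and Egr1) at an adjusted p under 0.05 in edgeR's quasi-likelihood test, where 19.8% of all tested genes were higher and 16.3% were lower. In Stat5b-/- cells, 4 were higher (Dusp6, Spry1, Spry2 and Etv4) and 4 were lower (Dusp4, Dusp5, Spred1 and Etv5), against 24.2% higher and 22.0% lower among all genes. Directly compared between the knockout lines, 3 were higher in Stat5b-/- (Dusp6, Etv4 and Egr1) and 2 were lower (Dusp4 and Dusp5), where the share of all genes was 16.4% and 17.5%. Levels in bulk RNA do not tell fewer expressing cells from less RNA per cell, and the part of the marker differences in these differences was not tested.

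The median log2 fold change of the 10 genes was -0.14 in Stat5a-/- and -0.07 in Stat5b-/-, beside 0.01 and 0.02 over all tested genes. Their median absolute log2 fold change was 0.47 in Stat5a-/- and 0.78 in Stat5b-/-, beside 0.33 and 0.40 over all genes. The libraries of the 2 lines did not overlap for 7 of the genes in Stat5a-/- against wt and for 8 in Stat5b-/- against wt, and over all tested genes this held for 49.2% and 54.2%. Between the knockout lines, 8 genes did not overlap, beside 44.8% of all genes. Spry1 was higher in both knockout lines, and Spred1 and Etv5 were lower in both. Dusp4 and Dusp6 were called in opposite directions in the knockout lines, and Spred2 was called in neither.

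**Figure D1:**
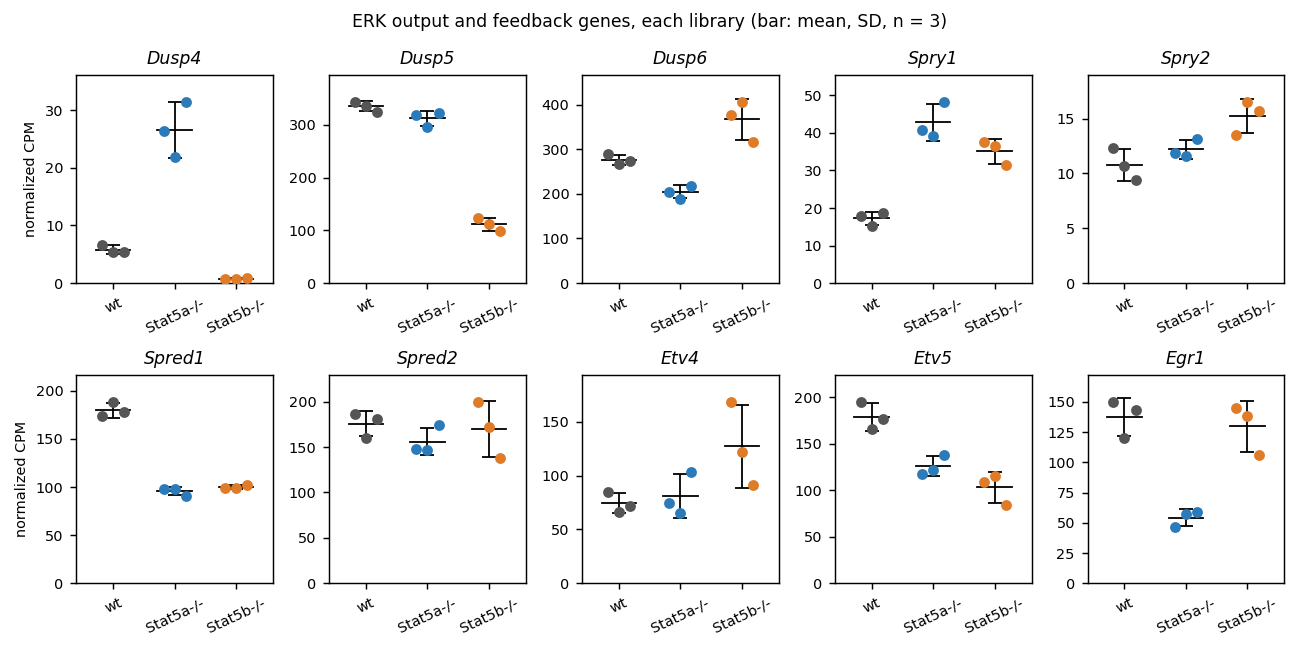
Normalized CPM of each of the 10 genes (vertical axes, starting at 0) in the 3 libraries of the wt, Stat5a-/- and Stat5b-/- lines (points), with the mean and SD (bars, n = 3). Dusp4 is highest in Stat5a-/- and close to 0 in Stat5b-/-, Dusp5 is low in Stat5b-/- alone, and Egr1 is low in Stat5a-/- alone.

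Dusp4, a nuclear phosphatase of ERK, JNK and p38 (chr8:34807297-34819894 of GRCm38, plus strand), showed the widest range. It had 6.66, 5.35 and 5.31 normalized CPM in the wt libraries, 26.4, 21.8 and 31.5 in Stat5a-/- and 0.754, 0.752 and 0.838 in Stat5b-/-. Each Stat5a-/- library lay above every wt library, and each Stat5b-/- library below. Compared to wt, Dusp4 was 4.60-fold higher in Stat5a-/- (log2 fold change 2.20, SE 0.16, adjusted p = 2.21e-07) and 7.32-fold lower in Stat5b-/- (log2 fold change -2.87, SE 0.24, adjusted p = 6.05e-07). Stat5b-/- cells thus had 33.7-fold less Dusp4 mRNA than Stat5a-/- cells (log2 fold change -5.07, SE 0.22, adjusted p = 2.1e-09). The counts behind these values were low in Stat5b-/-, with 11 reads in each library, against 92 to 106 in wt and 268 to 378 in Stat5a-/-.

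Dusp5 and Dusp6 encode phosphatases that act mainly on ERK, Dusp5 in the nucleus and Dusp6 in the cytoplasm. Dusp5 lies at chr19:53529109-53542431 and Dusp6 at chr10:99263231-99267489, both on the plus strand. Their upstream sequences (RefSeq, GRCm38.p6) are shown since the mRNAs of these functionally close genes differed in opposite directions in Stat5b-/- cells. Capitals in Dusp5 mark a pair of adjacent serum response elements, which bind serum response factor together with ERK-activated ETS partners.
Dusp5: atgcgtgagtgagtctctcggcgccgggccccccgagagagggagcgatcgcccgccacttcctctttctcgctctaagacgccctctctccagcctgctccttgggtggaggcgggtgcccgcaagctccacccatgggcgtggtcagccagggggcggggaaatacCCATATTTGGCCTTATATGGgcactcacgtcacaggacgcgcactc
Dusp6: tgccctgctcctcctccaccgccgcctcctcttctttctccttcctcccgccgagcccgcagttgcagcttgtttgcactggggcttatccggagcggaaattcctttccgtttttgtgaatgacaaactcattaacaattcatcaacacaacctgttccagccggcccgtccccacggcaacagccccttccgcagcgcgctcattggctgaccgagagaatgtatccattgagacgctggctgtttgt
The Dusp5 sequence covers chr19:53528895-53529108 and the Dusp6 sequence chr10:99262981-99263230, each up to the last base before the gene.

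The window searched reached from 250 bases before to 50 bases after each RefSeq start site, on both strands. Egr1 was left out of the search. Of the 10 genes, 7 were searched in at least 1 such window (Dusp5, Dusp6, Spry1, Spry2, Spred1, Spred2 and Etv5). In Dusp5, the elements CCATATTTGG and CCTTATATGG stood 82 to 73 and 72 to 63 bases before the start site and did not overlap each other. A serum response element was found in 1.63% of the 32851 promoters of the table. The same windows were searched for the STAT motif TTCNNNGAA (8.3% of all promoters), the ETS motif CCGGAAGT (3.89%) and the cyclic AMP response element TGACGTCA (1.79%), and none of these letters occurred in the windows of the 7 genes. The other 6 genes searched had no serum response element there either. Dusp4, Etv4 and Egr1 were not searched, so nothing is known here of their elements.

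Dusp5 had 344, 336 and 325 normalized CPM in wt, 319, 296 and 321 in Stat5a-/-, and 124, 111 and 98.7 in Stat5b-/-. The Stat5b-/- libraries were all far below the rest, and the Stat5a-/- libraries lay slightly below the wt libraries without overlap. Dusp5 was 3.01-fold lower in Stat5b-/- than in wt (log2 fold change -1.59, SE 0.10, adjusted p = 5.32e-08) and 2.80-fold lower than in Stat5a-/- (adjusted p = 1.87e-07). In Stat5a-/- against wt, its log2 fold change was -0.10 (95% interval -0.30 to 0.09, adjusted p = 0.465), which did not pass the test. With a correction for the GC content of the genes it was -0.29 and passed, both alone (adjusted p = 0.00982) and together with the replicate number as a block (adjusted p = 0.0238). The median of all tested genes on chromosome 19 was 0.41 in Stat5a-/- and 0.03 in Stat5b-/- against wt, on the log2 scale.

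Dusp6 had 288, 266 and 274 normalized CPM in wt, 205, 189 and 218 in Stat5a-/-, and 378, 406 and 317 in Stat5b-/-. The 3 lines did not overlap, with wt in the middle. Dusp6 was 1.35-fold lower in Stat5a-/- (log2 fold change -0.43, SE 0.11, adjusted p = 0.00657) and 1.33-fold higher in Stat5b-/- (log2 fold change 0.41, SE 0.11, adjusted p = 0.00724), and the Stat5b-/- level exceeded the Stat5a-/- level 1.80-fold (adjusted p = 6.15e-05). In Stat5b-/- cells Dusp6 was higher, while Dusp4 and Dusp5 were lower. In Stat5a-/- cells, Dusp4 was higher and Dusp6 lower.

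Among the Sprouty genes, Spry1 was higher in both knockout lines. Spry1 encodes an inhibitor of receptor signaling to RAS and ERK (chr3:37639947-37644598, plus strand), and had 17.9, 15.2 and 18.6 normalized CPM in wt, 40.9, 39.2 and 48.3 in Stat5a-/-, and 37.5, 36.4 and 31.4 in Stat5b-/-. All 6 knockout libraries were above the wt libraries, and the knockout lines did not overlap each other. Spry1 was 2.49-fold higher in Stat5a-/- (log2 fold change 1.31, SE 0.13, adjusted p = 3.04e-06) and 2.04-fold higher in Stat5b-/- (log2 fold change 1.03, SE 0.13, adjusted p = 2.46e-05). Between the knockout lines its log2 fold change was -0.28 (95% interval -0.53 to -0.04, adjusted p = 0.0958). Exons of the antisense gene Gm42922 cover 710 bases (24.4%) of the Spry1 exons, and reads in this stretch cannot be assigned to either gene by counting without strand.

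Spry2, its relative with a similar role (chr14:105891949-105896819, minus strand), had 12.3, 10.7 and 9.36 normalized CPM in wt, 11.9, 11.6 and 13.2 in Stat5a-/-, and 13.5, 16.5 and 15.7 in Stat5b-/-. The Stat5b-/- libraries were above all others, and wt and Stat5a-/- overlapped. Spry2 was 1.41-fold higher in Stat5b-/- than in wt (log2 fold change 0.50, SE 0.14, adjusted p = 0.0112), a call that was lost when wt replicate 3 was left out (log2 fold change 0.40, adjusted p = 0.0652). Its log2 fold change was 0.18 in Stat5a-/- (95% interval -0.11 to 0.46, adjusted p = 0.372) and 0.32 between the knockout lines (95% interval 0.04 to 0.60, adjusted p = 0.101).

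The Spred genes encode membrane-associated proteins that recruit neurofibromin to RAS and so restrain the cascade. Spred1 (chr2:117121374-117182279, plus strand) had 174, 188 and 177 normalized CPM in wt, 98.0, 98.5 and 91.0 in Stat5a-/-, and 98.7, 99.0 and 102 in Stat5b-/-. Every knockout library was below every wt library, and the knockout lines lay close together. Spred1 was 1.88-fold lower in Stat5a-/- (log2 fold change -0.91, SE 0.09, adjusted p = 2.91e-06) and 1.80-fold lower in Stat5b-/- (log2 fold change -0.85, SE 0.09, adjusted p = 4.79e-06). The log2 difference between the knockout lines was 0.06 (95% interval -0.11 to 0.23, adjusted p = 0.623).

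Spred2 (chr11:19924375-20024026, plus strand) had 186, 160.3 and 181 normalized CPM in wt, 148, 146 and 174 in Stat5a-/-, and 199.5, 172 and 138 in Stat5b-/-. The lines overlapped, and the Stat5b-/- libraries had the largest spread (SD 30.9). The log2 fold change of Spred2 was -0.17 in Stat5a-/- (95% interval -0.43 to 0.09, adjusted p = 0.341) and -0.05 in Stat5b-/- (95% interval -0.31 to 0.21, adjusted p = 0.78). It was the 1 gene of the 10 without a call in any comparison.

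The ETS transcription factors Etv4 and Etv5, which belong to the same PEA3 subfamily and act downstream of ERK, differed in opposite directions in Stat5b-/- cells. Etv5 (chr16:22381309-22439719, minus strand) had 195, 165 and 177 normalized CPM in wt, 118, 122 and 138 in Stat5a-/-, and 109, 116 and 84.5 in Stat5b-/-. All knockout libraries were below the wt libraries. Etv5 was 1.42-fold lower in Stat5a-/- (log2 fold change -0.51, SE 0.12, adjusted p = 0.00592) and 1.74-fold lower in Stat5b-/- (log2 fold change -0.80, SE 0.13, adjusted p = 0.000189), with a log2 difference of -0.29 between the knockout lines (95% interval -0.53 to -0.04, adjusted p = 0.0958).

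Etv4 (chr11:101769742-101785371, minus strand) had 85.2, 66.6 and 71.7 normalized CPM in wt, 74.3, 65.3 and 104 in Stat5a-/-, and 168, 122 and 91.2 in Stat5b-/-. The Stat5b-/- libraries were above the wt libraries but spread widely, and they overlapped the Stat5a-/- libraries. Etv4 was 1.71-fold higher in Stat5b-/- than in wt (log2 fold change 0.77, SE 0.21, adjusted p = 0.00866) and 1.57-fold higher than in Stat5a-/- (log2 fold change 0.65, SE 0.21, adjusted p = 0.0293). Without Stat5b-/- replicate 1 these values were 0.49 (adjusted p = 0.0622) and 0.39 (adjusted p = 0.155), and the second call was also lost without Stat5a-/- replicate 1, Stat5a-/- replicate 2 or Stat5b-/- replicate 2 (adjusted p from 0.0566 to 0.131). In Stat5a-/- against wt the log2 fold change was 0.12 (95% interval -0.29 to 0.53, adjusted p = 0.696). Etv4 has the highest GC content of the 10 genes (60.2%), and libraries of a line differed with the GC content of genes. The correction for GC content, alone or with the replicate number as a block, changed no call of Etv4.

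Egr1, an immediate-early zinc finger transcription factor (chr18:34859823-34864984, plus strand), was lower in Stat5a-/- cells. It had 149.8, 119.7 and 143 normalized CPM in wt, 46.2, 57.5 and 59.2 in Stat5a-/-, and 145, 138 and 106 in Stat5b-/-. The Stat5a-/- libraries were all below the others, and wt and Stat5b-/- overlapped. Egr1 was 2.53-fold lower in Stat5a-/- than in wt (log2 fold change -1.34, SE 0.14, adjusted p = 7.5e-06), and 2.39-fold higher in Stat5b-/- than in Stat5a-/- cells (log2 fold change 1.26, SE 0.14, adjusted p = 2.14e-05). In Stat5b-/- against wt its log2 fold change was -0.08 (95% interval -0.36 to 0.19, adjusted p = 0.654). The median of all tested genes on chromosome 18 was 0.43 in Stat5a-/- against wt, above 0, while Egr1 was below. Since Egr1 also responds to handling of cells, 9 stress and handling genes (heat shock genes, Atf3, Ddit3, Gadd45a and Gadd45b) were examined. Of these, 3 were higher and 2 lower in Stat5a-/-, and 4 were higher and 3 lower in Stat5b-/-, where 36% and 46.2% of all genes were called in either direction, and the part of handling in the Egr1 difference was not tested.

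**Figure D2:**
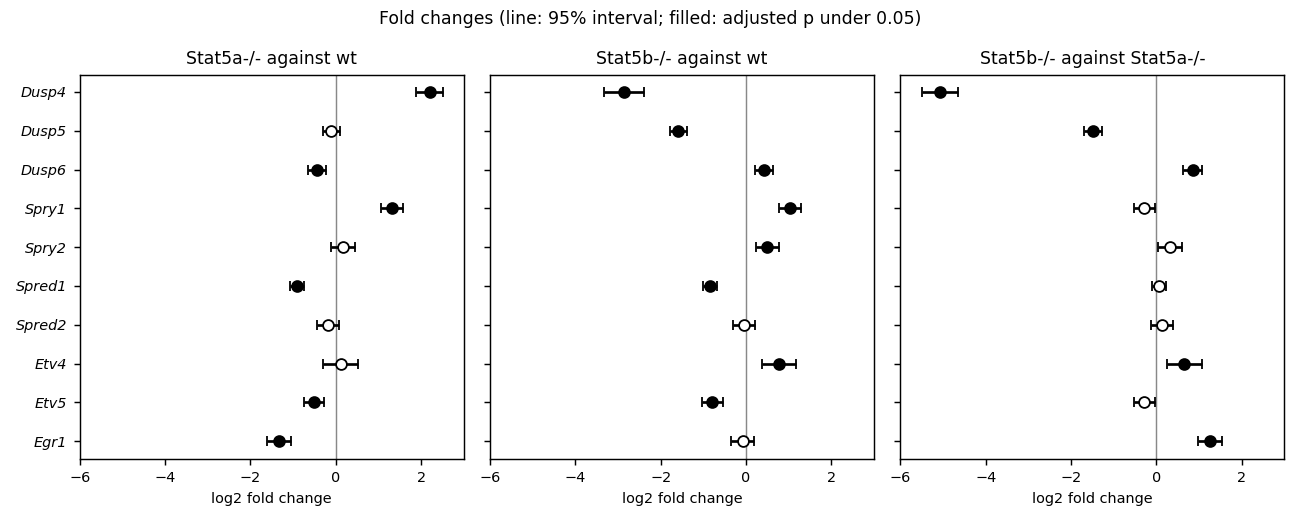
Log2 fold change (horizontal axis) of each of the 10 genes in Stat5a-/- against wt, Stat5b-/- against wt and Stat5b-/- against Stat5a-/-, with 95% intervals (lines). Filled points passed an adjusted p of 0.05, 6 genes in the left panel, 8 in the middle and 5 on the right, with Dusp4 farthest from 0 in every panel.

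Levels of different genes were compared per kilobase of exon, which for Spry1 includes the 24.4% shared with Gm42922. In wt, Dusp5 was highest of the 10 genes with 135 ± 3.81 normalized CPM per kb (SD, n = 3), followed by Dusp6 with 88.1 ± 3.60, Etv5 with 43.7 ± 3.62 and Spred2 with 38.1 ± 2.96. Egr1 (30.7 ± 3.52), Spred1 (26.5 ± 1.12) and Etv4 (24.0 ± 3.09) came next, and the wt libraries of these 3 genes overlapped. Spry1 (5.93 ± 0.617) and Spry2 (5.18 ± 0.709) also overlapped, and Dusp4 was lowest with 2.11 ± 0.280 normalized CPM per kb. Among all tested genes, Dusp5 stood at percentile 97.6 of the wt level and Dusp4 at percentile 31.3. In Stat5a-/-, Dusp5 was again highest with 126 ± 5.82 and Spry2 lowest with 5.85 ± 0.408 normalized CPM per kb. In Stat5b-/-, the highest was Dusp6 with 117 ± 14.5, ahead of Dusp5 with 45.0 ± 5.11, and Dusp4 was lowest with 0.285 ± 0.0179.

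Ratios of related genes within each library do not depend on the scaling between libraries. Dusp6 over Dusp5, both per kb, was 0.662, 0.624 and 0.665 in wt, 0.507, 0.505 and 0.536 in Stat5a-/-, and 2.41, 2.89 and 2.54 in Stat5b-/-. Of the 9 libraries, Dusp6 exceeded Dusp5 in the 3 Stat5b-/- libraries. Etv5 over Etv4 was 1.73, 1.88 and 1.87 in wt, 1.20, 1.41 and 1.01 in Stat5a-/-, and 0.490, 0.719 and 0.701 in Stat5b-/-, so that Etv4 exceeded Etv5 in the 3 Stat5b-/- libraries. Spry1 over Spry2 was 1.16 ± 0.228 in wt (SD, n = 3), 2.51 ± 0.106 in Stat5a-/- and 1.67 ± 0.289 in Stat5b-/-, without overlap between the lines. The Spry1 length in this ratio includes the 24.4% shared with Gm42922, which limits its absolute value. Spred2 over Spred1 was 1.44 ± 0.169 in wt, 2.40 ± 0.350 in Stat5a-/- and 2.5 ± 0.498 in Stat5b-/-, and the knockout lines overlapped each other but not wt. The ratio of Dusp6 to Dusp4 was 42.1 ± 3.80 in wt, 6.81 ± 0.757 in Stat5a-/- and 414 ± 73.9 in Stat5b-/-. No test was run on the ratios.

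**Figure D3:**
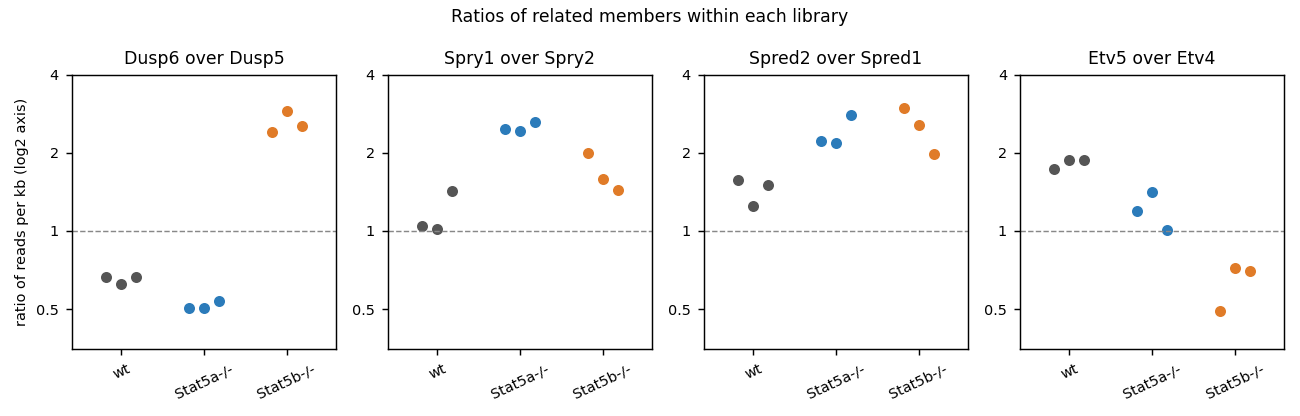
Ratio of reads per kb of related genes within each library (points, log2 vertical axis, dashed line at equal levels) in the wt, Stat5a-/- and Stat5b-/- lines. Dusp6 over Dusp5 is above 1 and Etv5 over Etv4 below 1 in the 3 Stat5b-/- libraries only.

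The patterns over the 9 libraries were compared as root-mean-square differences of centred log2 levels, which is 0 for genes that move identically. Among the 10 genes, Spred1 and Etv5 were most alike, with a difference of 0.251, and Dusp4 and Egr1 were least alike, with 2.51. Among the 13814 other tested genes with a symbol, the nearest were Syndig1l to Dusp4 (0.184), Anxa9 to Dusp5 (0.0765), Zc3hav1l to Dusp6 (0.0943), AB124611 to Spry1 (0.0736) and Arhgap10 to Spry2 (0.0993). Ammecr1 was nearest to Spred1 (0.0765), Cln6 to Spred2 (0.0508), Fbxl19 to Etv4 (0.0944), the docking protein gene Gab1 to Etv5 (0.063) and Serinc5 to Egr1 (0.116). The 9 libraries come from only 3 lines, and these values are a description.

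The wider pathway was examined in 5 lists with 75 genes, of which 69 were tested. Compared to wt, 20 of these were higher and 16 lower in Stat5a-/-, and 29 were higher and 18 lower in Stat5b-/-. Between the knockout lines, 15 were higher and 16 lower in Stat5b-/-. The count of 15 was 25 with a correction for GC content and 9 with the replicate number as a block (counts over all genes are given at the end). The shares of all genes called are given above for the same comparisons.

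Of 14 tested further genes that ERK induces, 6 were lower and 0 higher in Stat5a-/-, and 8 were lower and 3 higher in Stat5b-/-, with median log2 fold changes of -0.52 and -0.76. Of all tested genes, 16.3% were lower and 19.8% higher in Stat5a-/-, and 22.0% lower and 24.2% higher in Stat5b-/-. The medians over all tested genes were 0.01 and 0.02. Ccnd1, encoding cyclin D1, had 77.0 ± 10.5 normalized CPM in wt (SD, n = 3), 15.3 ± 3.67 in Stat5a-/- and 8.31 ± 1.59 in Stat5b-/-, which was 5.06-fold and 9.23-fold lower (adjusted p = 2.86e-07 and 1.92e-08). The Sprouty gene Spry4 was lower in Stat5a-/- (log2 fold change -1.96, SE 0.16, adjusted p = 7.29e-07) and in Stat5b-/- (log2 fold change -1.32, SE 0.16, adjusted p = 1.57e-05), where Spry1 was higher. Fos, an AP-1 subunit and immediate-early gene like Egr1, was lower in Stat5b-/- (log2 fold change -2.40, SE 0.21, adjusted p = 8.35e-07) and not called in Stat5a-/- (log2 fold change -0.09, adjusted p = 0.721). Egr1 showed the reverse, with a call in Stat5a-/- alone. Direct comparison of the knockout lines placed Fos lower (log2 fold change -2.31, adjusted p = 2.77e-06) and Egr1 higher in Stat5b-/-. Myc, a growth-promoting transcription factor, was lower in Stat5a-/- (log2 fold change -0.55, adjusted p = 0.00287) and in Stat5b-/- (log2 fold change -1.93, adjusted p = 5.29e-08), and 2.61-fold lower in Stat5b-/- than in Stat5a-/- (adjusted p = 2.26e-06). The receptor gene Epha2 had 68 to 92 reads per library in wt, 0 to 3 in Stat5a-/- and 7 to 11 in Stat5b-/-.

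Of the 6 other dual-specificity MAPK phosphatases tested, 3 were higher and 2 lower in Stat5a-/-, and 5 were higher and 1 lower in Stat5b-/-. Among all tested genes, 19.8% were higher and 16.3% lower in Stat5a-/-, and 24.2% higher and 22.0% lower in Stat5b-/-. Dusp1, a nuclear phosphatase of p38, JNK and ERK, was 2.11-fold higher in Stat5a-/- (log2 fold change 1.08, adjusted p = 0.000113), where the median of all tested genes on its chromosome 17 was 0.53 on the log2 scale. In Stat5b-/- it was also higher (log2 fold change 0.70, adjusted p = 0.00277), beside a chromosome median of 0.14. Dusp9, which acts on ERK, was 4.20-fold lower in Stat5a-/- (adjusted p = 1.71e-05) and lower in Stat5b-/- (log2 fold change -0.69, adjusted p = 0.0152), and its Stat5b-/- level exceeded the Stat5a-/- level 2.61-fold (adjusted p = 0.00122). Dusp16, which acts on JNK and p38, was 2.04-fold higher in Stat5b-/- when the knockout lines were compared (adjusted p = 0.00028). Between the knockout lines, 3 of these 6 genes were higher in Stat5b-/- and 0 were lower in edgeR's test. Of all genes, 16.4% were higher and 17.5% lower.

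Within the cascade itself, 4 of 17 genes were higher and 2 lower in Stat5a-/-, and 5 were higher and 2 lower in Stat5b-/-, where 36% and 46.2% of all genes were called in either direction. Map2k1 (MEK1) and Mapk3 (ERK1) were singled out after their values were seen. The log2 fold change of Map2k1 was -0.19 in Stat5a-/- (adjusted p = 0.147) and -0.21 in Stat5b-/- (adjusted p = 0.0921), and that of Mapk3 was 0.26 (adjusted p = 0.0777) and 0.41 (adjusted p = 0.00657). Larger differences lay in the scaffold gene Ksr1, which was 7.28-fold higher in Stat5a-/- and 5.12-fold higher in Stat5b-/- (adjusted p = 7.61e-08 and 4.2e-07), and in Rps6ka2, encoding an RSK kinase downstream of ERK, which was 11.6-fold and 7.07-fold higher (adjusted p = 7.12e-08 and 5.44e-07) and lies on chromosome 17 like Dusp1. Ksr2, a relative of Ksr1, was 2.85-fold higher in Stat5b-/- (adjusted p = 0.00309), with 6 to 19 reads per library in wt. Rps6ka1, another RSK gene, was 2.35-fold lower in Stat5b-/- than in Stat5a-/- (adjusted p = 3.43e-06).

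Among 12 tested adaptors and exchange factors that load RAS with GTP, 3 were higher and 3 lower in Stat5a-/-, and 5 were higher and 3 lower in Stat5b-/-. Of all tested genes, 36% and 46.2% were called in either direction in these lines. Rasgrp1 was higher in both lines, 1.94-fold in Stat5a-/- (adjusted p = 0.00482) and 2.21-fold in Stat5b-/- (adjusted p = 0.00115), with an adjusted p of 0.556 between them. Rasgrp2 was likewise 2.52-fold and 1.67-fold higher (adjusted p = 5.34e-07 and 9.28e-05), and it lies on chromosome 19, where the median of all tested genes was 0.41 and 0.03 on the log2 scale. Rasgrp4 was 5.86-fold higher in Stat5a-/- than in wt (adjusted p = 1.11e-05) and 4.88-fold lower in Stat5b-/- than in Stat5a-/- (adjusted p = 5.09e-05), on 9 to 23 reads per library in wt. Of 20 tested inhibitors of RAS and ERK other than the 10 genes, 10 were higher and 3 lower in Stat5a-/-, and 11 were higher and 4 lower in Stat5b-/-. The shares of all tested genes were 19.8% higher and 16.3% lower in Stat5a-/-, and 24.2% higher and 22.0% lower in Stat5b-/-. Pea15a, which holds ERK in the cytoplasm, was 3.75-fold higher in Stat5a-/- and 2.58-fold higher in Stat5b-/- (adjusted p = 1.38e-05 and 0.000236). Dok1, an adaptor that recruits RAS GTPase-activating protein, was 2.42-fold and 2.45-fold higher (adjusted p = 1.41e-05 and 1e-05), and the ETS repressor Etv3 was 2.17-fold and 2.68-fold higher (adjusted p = 9.21e-07 and 8.13e-08). Erf, an ETS repressor that ERK exports from the nucleus, was 1.46-fold lower in Stat5a-/- (adjusted p = 0.0379) and 2.77-fold lower in Stat5b-/- (adjusted p = 4.45e-05). Spred3, the third Spred gene, was 2.38-fold lower in Stat5b-/- (adjusted p = 0.00139), and in Stat5a-/- its log2 fold change was -0.49 (adjusted p = 0.138). Rasal2, encoding a RAS GTPase-activating protein, had 184 to 260 reads per library in wt, 1 to 4 in Stat5a-/- and 5 to 8 in Stat5b-/-.

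**Figure D4:**
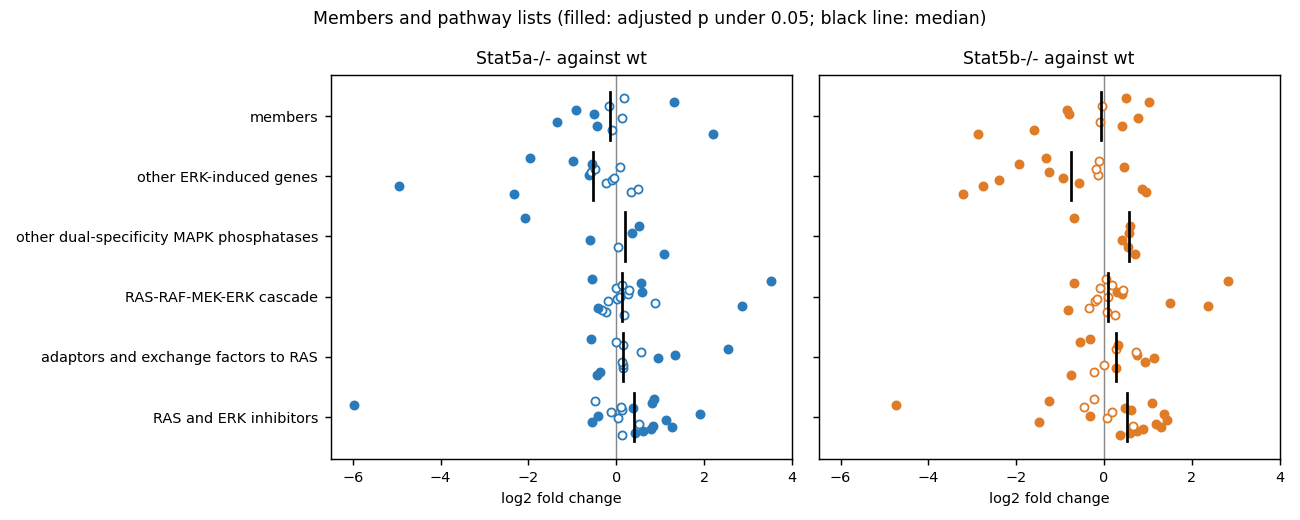
Log2 fold change against wt (horizontal axis) of the 10 genes (top row) and of the tested genes of the 5 pathway lists, in Stat5a-/- (left) and Stat5b-/- (right), with filled points for an adjusted p under 0.05 and black lines for medians. The further ERK-induced genes have medians of -0.52 and -0.76, and the RAS and ERK inhibitors 0.40 and 0.52. Over all tested genes, which are not drawn, the medians are 0.01 and 0.02.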

How the data were processed

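Per the labels and the study's methods, RNA of 9 libraries was prepared with the Lexogen SENSE kit and sequenced as 50 bp single-end reads. The authors trimmed the reads with Trimmomatic, mapped them with STAR to the genome of GENCODE release 13 (M13, GRCm38) and deposited raw counts per gene from featureCounts 1.5.1, run without a strand option. Groups came from titles and genotype labels.

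From these counts, TMM normalization and the quasi-likelihood test of edgeR 4.0.16 (R 4.3.3) were run on all 9 libraries with 1 coefficient per line, after filterByExpr, with Benjamini-Hochberg adjustment over 13852 genes. A gene was called at an adjusted p under 0.05. Symbols and GC content came from GENCODE release 21 (M21), which named 50376 of 50686 genes. The steps were tested on simulated counts.

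The 10 genes, the lists and the tests were chosen with earlier results of these data known. Named were the 10 genes, Stat5a and Stat5b, up to 3 highest and 3 lowest genes of each list and comparison past a fold change of 2 and a mean of 1 CPM (the most telling of these are given), and the nearest gene by pattern. Outside this rule, Map2k1 and Mapk3 were named after their values were seen, as were marker and stress genes from their lists. Alternatives were DESeq2 1.42.0, RLE scaling, other count filters, only the 2 lines compared, the replicate number as a block, a GC offset, both together, each library left out, and a fold limit of 2. Library totals of 11948136 to 19016396 reads make changes of genes with few reads imprecise, and without molecular identifiers a read need not stand for a separate molecule. Promoter windows from RefSeq were searched for 7 of the 10 genes, and Egr1 was left out of that search. The values of 1 cascade gene are not reported here.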

Additional observations from a re-analysis of the deposited data

Results flagged for a closer look

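For 5 of the 10 genes the effects against wt differed between the knockout lines, by the comparison of Stat5b-/- with Stat5a-/- already given in the report, and no further test was run. Of all 13852 tested genes, 33.9% were called in that comparison. The log2 fold change was -5.07 for Dusp4, -1.49 for Dusp5, 0.85 for Dusp6, 0.65 for Etv4 and 1.26 for Egr1. For Dusp4 and Dusp6 the lines also lay on opposite sides of wt. For Etv4 the libraries of the knockout lines overlapped, and the call was lost when any 1 of 4 libraries was left out. With 1 line per genotype, genotype and individual line cannot be told apart here, and the cause of the differences was not tested.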

How the results depend on the processing

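The 30 log2 fold changes of the 10 genes were recomputed under 17 alternatives, and of these 510 values 502 kept their call, 6 lost a call and 2 gained a call. In 8 values, of 5 results without a call, the sign was the other one (Etv4 in Stat5a-/- against wt, Spred2 and Egr1 in Stat5b-/- against wt, Spred1 and Spred2 between the knockout lines), and 0 called values changed sign. The values that lost or gained a call belong to Dusp5, Spry2 and Etv4, and the report gives their adjusted p or its range. The replicate block, a term for the replicate number, and DESeq2 changed no call of the 10 genes. Libraries with the same number did not deviate together (mean correlation -0.088 over 9 pairs, against 0.044 over 18 other pairs), and 1 of 9 libraries was closest to its own number. Under the block, 9 pathway genes were higher in Stat5b-/- than in Stat5a-/-, where 15 were higher without it. With the GC offset this count was 25, and with offset and block 24. Over all genes, the same comparison gave 2269 higher of 13852, 1802 under the block, 3315 of 13824 with the offset and 2930 with both. Leaving out 1 library gave 8 to 14 higher (9 without Stat5a-/- replicate 1, 8 without Stat5a-/- replicate 2, 9 without Stat5b-/- replicate 1) and 10 to 17 lower (10 without Stat5a-/- replicate 3). Over all genes, those 3 libraries left 1799, 1647 and 1890 higher, and the last left 2154 lower, of 2429 with all libraries.

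With a fold change above 2 required as well, the 10 genes gave 2 higher and 1 lower in Stat5a-/- against wt, 1 higher and 2 lower in Stat5b-/- against wt, and 1 higher and 2 lower in Stat5b-/- against Stat5a-/-. The pathway genes then gave 8 higher and 5 lower in Stat5a-/-, 9 higher and 9 lower in Stat5b-/-, and 3 higher and 5 lower between the knockout lines. Of all 13852 genes, 1973, 2640 and 1580 were past both limits. RLE and DESeq2 size factors moved the median of all genes by at most 0.0252 (log2, downward). Dusp4 in Stat5b-/- rests on 11 reads per library, which limits the precision of its fold change.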
